A study of Oryctolagus cuniculus with 57 samples.

Results

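The genes of 4 secreted antimicrobial proteins were followed in the ileum of young rabbits: REG3G ("regenerating islet-derived 3 gamma"), LYG2 ("lysozyme G-like 2"), ITLN2 ("intelectin 2") and RNASE6 ("ribonuclease, RNase A family, k6"). The probes read were those that the deposited annotation, or the study's lists of differentially expressed genes, assigned to these genes. This gave 8 probes for the 4 genes, out of 33284 probes in the authors' table of normalised values: 1 each for REG3G, ITLN2 and RNASE6, and 5 for LYG2. The ITLN2 probe carried no gene description in the array files. It was named only through those lists, which hold only probes that the study had called in these data.

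The animals were commercial hybrid rabbits (PS Hyplus 19 × PS Hyplus 39), sampled at day 35 (weaning) and day 49. Pups of the FF group had in the nest, in place of their mother's feces, feces of unrelated does. Pups of the FFab group had feces of unrelated does treated with antibiotics (tetracycline and tiamulin), and pups of the NF group had no access to feces in the nest. There were 10 rabbits in each group at day 35 and 9 at day 49, and total RNA of each ileum was hybridised to 1 one-colour array. No group was left undisturbed with its own mother's feces, so the 3 treatments were compared with one another. The study left out 1 NF rabbit, and so did the fits here. The array of this animal, NF rabbit lap78 of day 35, had a median correlation of 0.94 with the other arrays, where the lowest such value among the other 56 was 0.96. The values below rest on 56 rabbits, and those that rabbit lap78 moves are given with it too. The 56 arrays lay on 9 slides that each held all 6 groups. Absorptive enterocytes of the small intestine were readable in every rabbit: 8 of 14 listed marker genes were measured, with a mean log2 signal between 12.94 and 15.84. None of these markers tells the ileum from the rest of the small intestine. Of the 10 listed Paneth cell markers 1 was tested, so this cell type, which makes several of these proteins in other species, could not be followed.

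The 4 proteins, or the families they belong to, act on bacteria or bind microbes, by different means. REG3G is a C-type lectin that epithelial cells release into the gut lumen. In mice it binds peptidoglycan, kills Gram-positive bacteria and helps keep bacteria away from the epithelium, and its transcription is induced by the cytokine IL22 through STAT3. LYG2 belongs to the goose-type lysozymes, which cut peptidoglycan. Intelectins are lectins that bind sugars found on microbial surfaces. RNASE6 belongs to the RNase A family and, in humans, is made by myeloid cells and has antibacterial activity. In whole tissue, fewer cells of a type and less RNA per cell cannot be told apart.

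The probe sequences define what was measured, and are shown for the probe each gene was read by. Coordinates are those of the array files (rabbit build oryCun2), and each sequence is written 5′ to 3′ in the sense of the transcript. Capitals in the REG3G sequence mark the TGA at its end.
REG3G, chr2:107291499-107291558, minus strand: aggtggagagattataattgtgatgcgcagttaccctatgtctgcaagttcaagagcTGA
ITLN2, chr13:32022911-32022970, plus strand: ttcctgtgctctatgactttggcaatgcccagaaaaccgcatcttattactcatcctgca
RNASE6, chr17:41176776-41176835, plus strand: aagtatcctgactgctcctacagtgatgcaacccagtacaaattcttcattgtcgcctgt
The LYG2 probes were 5 windows of 60 bases over the same 64 bases of the transcript (chr2:92992957-92993020, plus strand), each moved by a single base. Capitals mark the 56 bases that all 5 hold, in the first window, the last window and the window used for the gene.
LYG2, first window: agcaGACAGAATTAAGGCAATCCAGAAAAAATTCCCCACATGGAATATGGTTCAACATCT
LYG2, window used: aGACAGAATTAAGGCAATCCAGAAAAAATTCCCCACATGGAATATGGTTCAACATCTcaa
LYG2, last window: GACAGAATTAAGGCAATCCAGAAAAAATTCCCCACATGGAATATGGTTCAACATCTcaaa
The 5 LYG2 probes thus measured a single target and are not independent. Over 56 arrays the correlation between any pair of them lay between 0.997 and 0.999. All 8 probes were well above background on each of the 56 arrays, none was saturated, and none was flagged.

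REG3G showed the largest rise between days 35 and 49 of all 8037 genes tested in FF rabbits. At day 35 its log2 signal in the 10 FF rabbits ran from 11.33 over a median of 12.81 to 14.62. At day 49 it ran from 13.71 over 17.38 to 18.53 in 9 FF rabbits, and 8 of these were above every FF rabbit of day 35. In these rabbits REG3G was up-regulated with age by 3.94 ± 0.77 on the log2 scale (SE), or 15.4-fold (limma, adjusted p = 0.000617, 95% interval 2.41 to 5.48).

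In NF rabbits REG3G ran from 11.43 over a median of 13.15 to 15.92 at day 35 and from 12.69 over 15.43 to 17.70 at day 49. The groups overlapped, with 4 of 9 NF rabbits of day 49 above all those of day 35. The log2 difference was 2.14 ± 0.79, with an adjusted p of 0.483 in limma. In FFab rabbits REG3G ran from 10.03 over 12.92 to 18.33 at day 35 and from 13.74 over 15.30 to 18.30 at day 49. No FFab rabbit of day 49 was above the highest of day 35. The log2 difference was 2.61 ± 0.77 (limma, adjusted p = 0.207). A single animal, FFab rabbit lap108 at day 35, held the value of 18.33. Without it the difference was 3.17 and the adjusted p in limma 0.0325, past the threshold.

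LYG2 was the one member whose ages did not overlap in FF rabbits. Its log2 signal ran from 7.07 over a median of 9.0 to 10.35 at day 35 and from 11.01 over 11.23 to 12.29 at day 49. All 9 FF rabbits of day 49 lay above all 10 of day 35. Such a separation was seen for 25 of 8037 genes (0.311%). LYG2 was up-regulated in FF rabbits by 2.38 ± 0.51 on the log2 scale, or 5.19-fold (limma, adjusted p = 0.00188, 95% interval 1.36 to 3.39). The 5 LYG2 probes, tested among 31722 probes above background, gave log2 differences of 2.35 to 2.39 with adjusted p of 0.00164 to 0.00231 in limma.

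In NF rabbits LYG2 ran from 8.39 over 9.39 to 11.54 at day 35 and from 7.40 over 11.04 to 12.52 at day 49. The day 49 values of NF rabbits spanned the whole range of the younger ones and beyond, at both ends. The log2 difference was 0.69 ± 0.52 (limma, adjusted p = 0.977). In FFab rabbits LYG2 ran from 8.24 over 9.67 to 10.89 at day 35 and from 9.63 over 11.19 to 12.68 at day 49. There, 6 of 9 older rabbits were above all the younger ones, and the log2 difference was 1.51 ± 0.51 (limma, adjusted p = 0.316).

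ITLN2 differed by nearly the same amount in the 3 treatments, with no call in any of them alone. In FF rabbits its log2 signal ran from 10.78 over 12.03 to 12.91 at day 35 and from 11.52 over 13.69 to 14.99 at day 49. In NF rabbits it ran from 10.13 over 11.51 to 12.87 and then from 11.01 over 12.85 to 15.22. In FFab rabbits it ran from 9.52 over 11.17 to 14.11 and then from 11.09 over 13.33 to 14.29. The ages overlapped in each treatment. The log2 differences between days were 1.28 ± 0.54 in FF, 1.38 ± 0.56 in NF and 1.5 ± 0.54 in FFab rabbits, with adjusted p in limma of 0.149, 0.615 and 0.367. Averaged over treatments, ITLN2 was up-regulated by 1.38 ± 0.32 on the log2 scale, or 2.61-fold (limma, adjusted p = 0.00173). With NF rabbit lap78, whose ITLN2 signal of 15.84 lay above that of every other rabbit, the difference in NF rabbits was 0.96.

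RNASE6 moved least. Its log2 signal in FF rabbits ran from 9.59 over 10.25 to 11.07 at day 35 and from 9.74 over 11.33 to 11.70 at day 49. The older FF rabbits fell apart, with 5 of 9 above every younger one and FF rabbits lap212 and lap213 at 9.74 and 9.83. In NF rabbits it ran from 9.80 over 10.44 to 11.48 and then from 10.21 over 10.82 to 12.52. In FFab rabbits it ran from 9.82 over 10.21 to 10.97 and then from 9.56 over 10.43 to 11.05, which is nearly the same range. The log2 differences between days were 0.69 ± 0.26 in FF, 0.49 ± 0.26 in NF and 0.16 ± 0.26 in FFab rabbits, with adjusted p in limma of 0.0855, 0.857 and 0.948. Without FF rabbit lap212, lap213 or lap102 in turn, the RNASE6 difference in FF rabbits was 0.84, 0.83 or 0.78 and its adjusted p in limma 0.0279, 0.0321 or 0.0476, past the threshold. Averaged over treatments the difference of 0.45 ± 0.15 had an adjusted p of 0.0353 in limma and was below the fold threshold of 0.5.

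**Figure D1:**
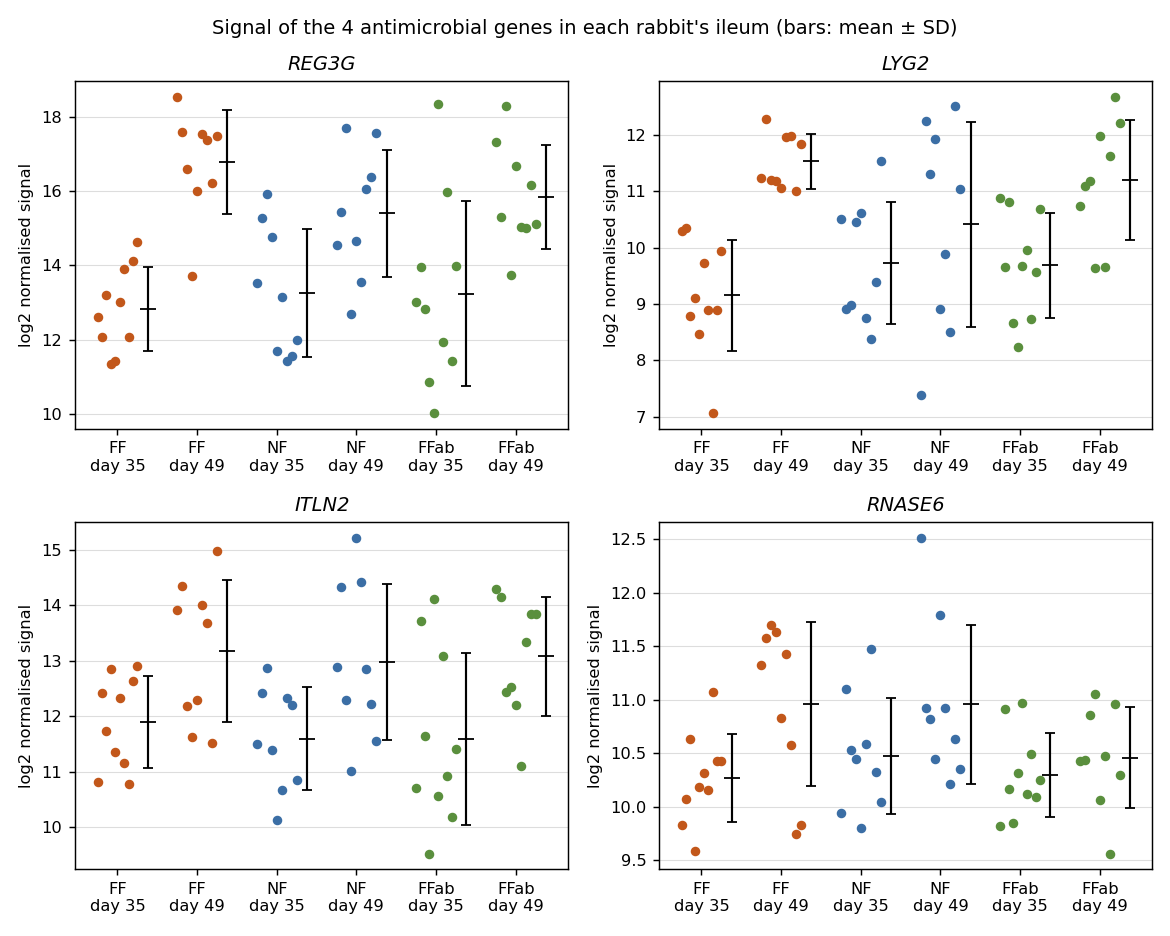
Log2 normalised signal of REG3G, LYG2, ITLN2 and RNASE6 (1 panel and axis each) in every rabbit, by treatment and day. Points are rabbits and black bars are the mean ± SD of 9 or 10 rabbits. The FF rabbits of day 49 stand wholly above those of day 35 for LYG2, and the groups overlap for the other genes.

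A gene was called when its adjusted p was below 0.05 and its log2 difference above 0.5 in size, both over all 8037 genes. By this rule, 2 of the 4 members rose in FF rabbits, where 2.95% of all genes did. No member was called in NF rabbits (0.0249% of all genes rose) or in FFab rabbits (0.0747%), although 2 and 3 of them had an unadjusted p below 0.05 in limma. Averaged over treatments 3 of 4 members rose, against 2.43% of all genes. ITLN2 was among these 3. It had a name, and so could be tested, only because the study listed its probe as differentially expressed in these same data. Its call is therefore no independent support. REG3G and LYG2 were also among the genes that the study reported as up-regulated in FF rabbits. All members were chosen with earlier results of these data known. The counts of members called are therefore no independent support either. The median log2 difference of the 4 members was 1.83 in FF, 1.03 in NF and 1.5 in FFab rabbits, beside medians over all genes of -0.02 in FF and below 0.01 in size in the others. Within slides, the mean of day 49 exceeded that of day 35 in FF animals on 8 of 9 slides for REG3G, on 9 for LYG2, on 7 for ITLN2 and on 8 for RNASE6. For REG3G it did so on 8 of 8 slides with both ages in NF animals and on 6 of 9 in FFab animals.

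Whether the rise with age differed between treatments was tested directly, and no difference passed. The rise of REG3G in FF rabbits exceeded that in NF rabbits by 1.81 ± 1.1 on the log2 scale (limma, unadjusted p = 0.106, adjusted p = 0.999, 95% interval -0.40 to 4.01). For LYG2 the excess in FF over NF rabbits was 1.69 ± 0.72 (limma, unadjusted p = 0.0235, adjusted p = 0.999, 95% interval 0.24 to 3.15), the only member with an unadjusted p below 0.05 in the 3 tests of this kind. Against FFab rabbits the excess in FF was 1.34 ± 1.08 for REG3G and 0.86 ± 0.72 for LYG2, both with an adjusted p of 1 in limma. For ITLN2 the difference between FF and NF was -0.10 ± 0.78 (95% interval -1.67 to 1.46), and its sign turned with rabbit lap78 in the fit (0.32). For RNASE6 it was 0.20 ± 0.37. These intervals are wide, and a call in FF rabbits alone therefore does not show that the treatments differed. Over all genes, 0% were called in any of these 3 tests.

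**Figure D2:**
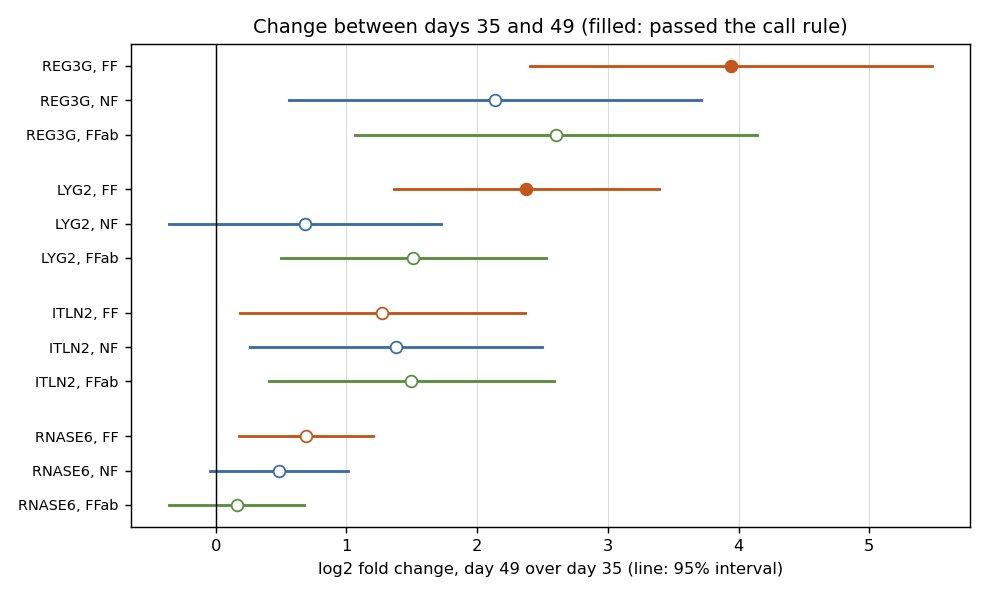
Log2 fold change between day 35 and day 49 for each gene and treatment, with 95% intervals from limma. Filled points passed the call rule (REG3G and LYG2 in FF rabbits), and the intervals of the 3 treatments overlap for each gene.

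Within a day, no member differed between treatments by the call rule. At day 35, REG3G and LYG2 had their lowest group means in FF rabbits (12.84 ± 1.13 and 9.15 ± 0.99, SD, n = 10), and at day 49 their highest (16.78 ± 1.39 and 11.53 ± 0.48, SD, n = 9). At day 49, FF exceeded NF rabbits by 1.39 ± 0.79 for REG3G, which was the largest such difference of all genes tested, and by 1.12 ± 0.52 for LYG2 (limma, unadjusted p = 0.0836 and 0.0362, both with an adjusted p of 1). LYG2 was the only member with an unadjusted p below 0.05 in any of the 6 comparisons within a day. The share of all genes called higher or lower at day 35 was 0.0373% between FF and NF and 0.0124% between FF and FFab, and 0% in the other 4 comparisons. For RNASE6 the means at day 49 were 10.96 in both FF and NF rabbits and 10.46 in FFab rabbits, and those of ITLN2 lay between 12.98 and 13.17.

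The order of the 6 group means was the same for REG3G and LYG2: FF, FFab and NF at day 49, then NF, FFab and FF at day 35. For REG3G the only step between neighbours that exceeded their SDs was the one of 2.14 between NF rabbits of day 49 and of day 35. For LYG2 no step exceeded the SD of both neighbours. For ITLN2 the step between ages, of 1.08, exceeded the SD of the lower neighbour but not of the upper. RNASE6 had FFab rabbits of day 49 at 10.46, below NF rabbits of day 35 at 10.47, so that its order did not split by age.

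The spread between rabbits was wide for 3 of these genes. The SD within groups was 1.71 for REG3G, 1.21 for ITLN2, 1.13 for LYG2 and 0.57 for RNASE6, where the median over all genes was 0.33. These values stood at the 99.5th, 97.8th, 97.2nd and 81.5th percentile of 8037 genes. REG3G was most variable in FFab rabbits of day 35 (SD 2.49), where the linear signal had a coefficient of variation of 225%, and least in FF rabbits of day 35 (SD 1.13). LYG2 varied least in FF rabbits of day 49 (SD 0.48, range 11.01 to 12.29) and most in NF rabbits of the same day (SD 1.82, range 7.40 to 12.52). Of these NF rabbits, 4 lay below 10 and the others above 11.

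Because IL22 is known as an inducer of REG3G, its own signal was read beside that of the members. It was near background in most rabbits. The array holds 5 IL22 probes on chromosome 4, in overlapping sets of 3 and 2, whose targets run across introns. Only 1 of them passed the filter, and it did so through FF rabbits of day 49, where 7 of 9 arrays were well above background. The sequences of that probe and its neighbour are shown because the IL22 result rests on them; capitals mark the 59 bases they share.
IL22, probe used, chr4:47241315-47242292, minus strand: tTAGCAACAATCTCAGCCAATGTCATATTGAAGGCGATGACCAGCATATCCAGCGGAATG
IL22, neighbour, chr4:47241314-47242291, minus strand: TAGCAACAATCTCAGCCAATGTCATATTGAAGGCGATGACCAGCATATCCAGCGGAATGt
Over all rabbits, the probe used was well above background on 20 of 56 arrays. All 5 probes were so in 12 rabbits, and none of them in 29.

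In FF rabbits of day 35, IL22 was not well above background on any of the 10 arrays with the probe used, which ran from 2.00 over a median of 2.45 to 3.52. At day 49 it ran from 2.07 over 4.16 to 11.30 in 9 FF rabbits, and 7 of these were above all the younger ones. For a fold, each day 35 array was set to the lowest signal above background on it, or to its own IL22 signal where that was higher. Against this the mean at day 49 was 4.98-fold higher. That mean includes arrays not well above background, so the fold is not a strict lower bound. FF rabbit lap158 alone held the value of 11.30, and without it the mean was 2.89-fold higher. Tested with all 42089 probes the adjusted p of the probe used was 0.0586 in limma, and IL22 was therefore not called. Among the 8037 genes that passed the filter it was 0.0377, which is no support for a rise because the probe had passed through the group in which it was high. That value too was above the threshold without lap158 (0.13) and when each of 9 other FF rabbits was left out in turn, 6 of day 35 (lap87, lap88, lap89, lap90, lap101 and lap103) and 3 of day 49 (lap159, lap208 and lap209), with adjusted p of 0.0514 to 0.0617. The other 4 probes, taken in the same way, gave differences of 1.72 to 2.17 on the log2 scale in FF rabbits. Of these probes 1 was measured on 1 of 10 day 35 arrays and the rest on none. Tested in limma over all 42089 probes, they had adjusted p of 0.121 to 0.168. In NF and FFab rabbits IL22 had an adjusted p of 0.999 and 0.967 in limma between ages.

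**Figure D3:**
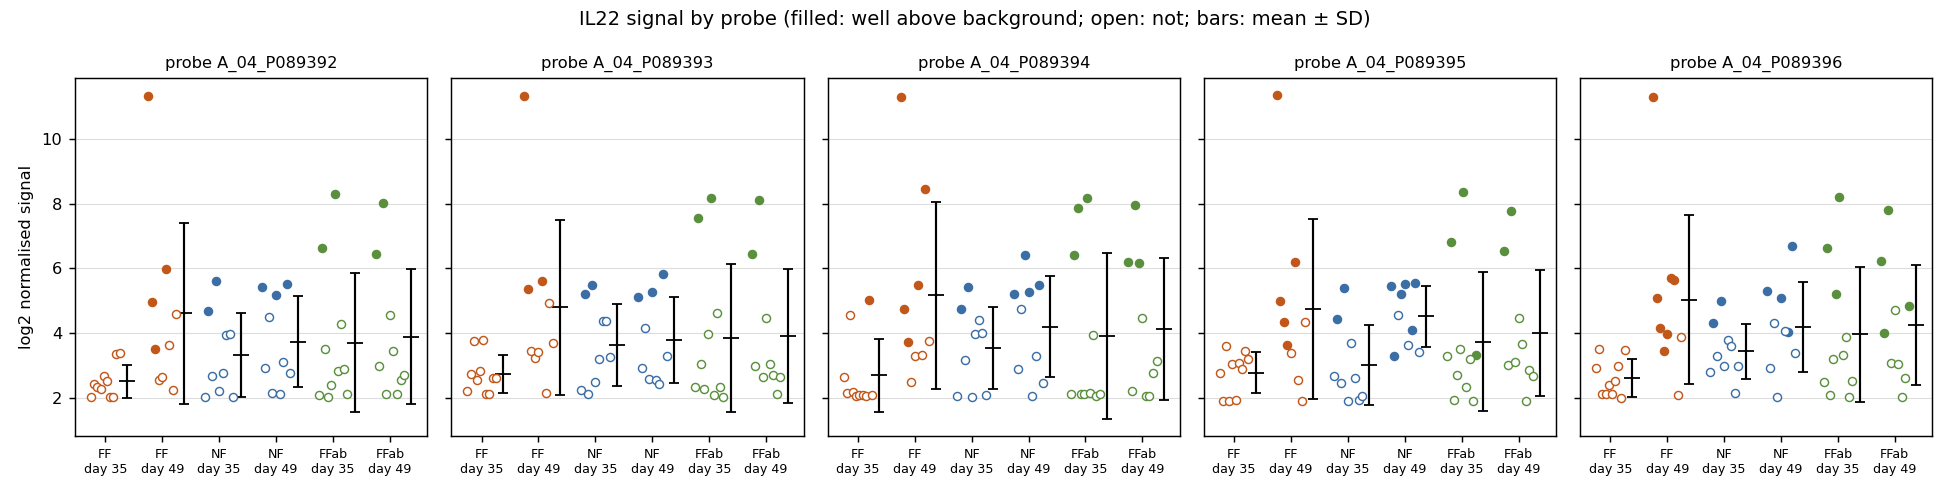
Log2 normalised signal of the 5 IL22 probes in every rabbit, by treatment and day. Filled points were well above background and open points were not; bars are mean ± SD. FF rabbit lap158 stands alone at about 11.3 on each probe.

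Over the 6 groups together REG3G followed IL22 from rabbit to rabbit. The IL22 probe used was well above background on 20 of 56 arrays, so most IL22 deviations came from signals near background. To remove the difference between ages, each rabbit was taken as its deviation from the mean of its group. Over 56 rabbits the deviations of REG3G and IL22 had r = 0.50 and rho = 0.44 (permutation within groups, two-sided, adjusted over the 4 members: p = 0.00088 and 0.00536). Without the 2 rabbits farthest from the median of IL22, r was 0.38 and rho 0.36 (permutation, adjusted p = 0.0161 and 0.0242). With slide means removed as well, r was 0.52 (permutation, adjusted p = 0.00112). The rabbit with the highest IL22 of its group was also the highest for REG3G in 3 of the 6 groups, for LYG2 in 2, for RNASE6 in 1 and for ITLN2 in 0.

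Within single groups r between REG3G and IL22 was 0.07 in FF, 0.57 in NF and 0.54 in FFab rabbits of day 35, and 0.64, 0.28 and 0.80 at day 49. All 6 were positive, but none passed adjustment over the 24 tests of this kind. The strongest, in FFab rabbits of day 49, had an exact permutation p of 0.0104 and an adjusted p of 0.125. Leaving out the 2 rabbits farthest from the IL22 median of each group turned the sign in 3 of the groups, to -0.24 and -0.22 in FF and FFab rabbits of day 35 and -0.37 in NF rabbits of day 49, so within those groups the relation rested on those rabbits.

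RNASE6 also followed IL22, with r = 0.39 and rho = 0.40 (permutation, adjusted p = 0.0113 and 0.0072), and r = 0.37 without the 2 farthest rabbits (permutation, adjusted p = 0.0161). In FFab rabbits of day 35 its r with IL22 was 0.86 (permutation p = 0.00241, adjusted p = 0.0578). ITLN2 had r = 0.26 and rho = 0.30 (permutation, adjusted p = 0.127 and 0.0504). Without the 2 farthest rabbits its r was 0.34 (permutation, adjusted p = 0.0319), past the threshold. LYG2 showed no relation that could be detected, with r = -0.10 and rho = -0.12 (permutation, adjusted p = 0.423 and 0.407).

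The choice of IL22 probe was varied after these values were seen. With each of the other 4 probes and with the mean of all 5, r of REG3G lay between 0.41 and 0.60, each with an adjusted permutation p below 0.05. For RNASE6 r lay between 0.27 and 0.43. The lowest values of both came from probe A_04_P089394, with which the r of RNASE6 had an adjusted permutation p of 0.132. With that probe and without the 2 farthest rabbits, r of REG3G was 0.27 (permutation, adjusted p = 0.259).

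**Figure D4:**
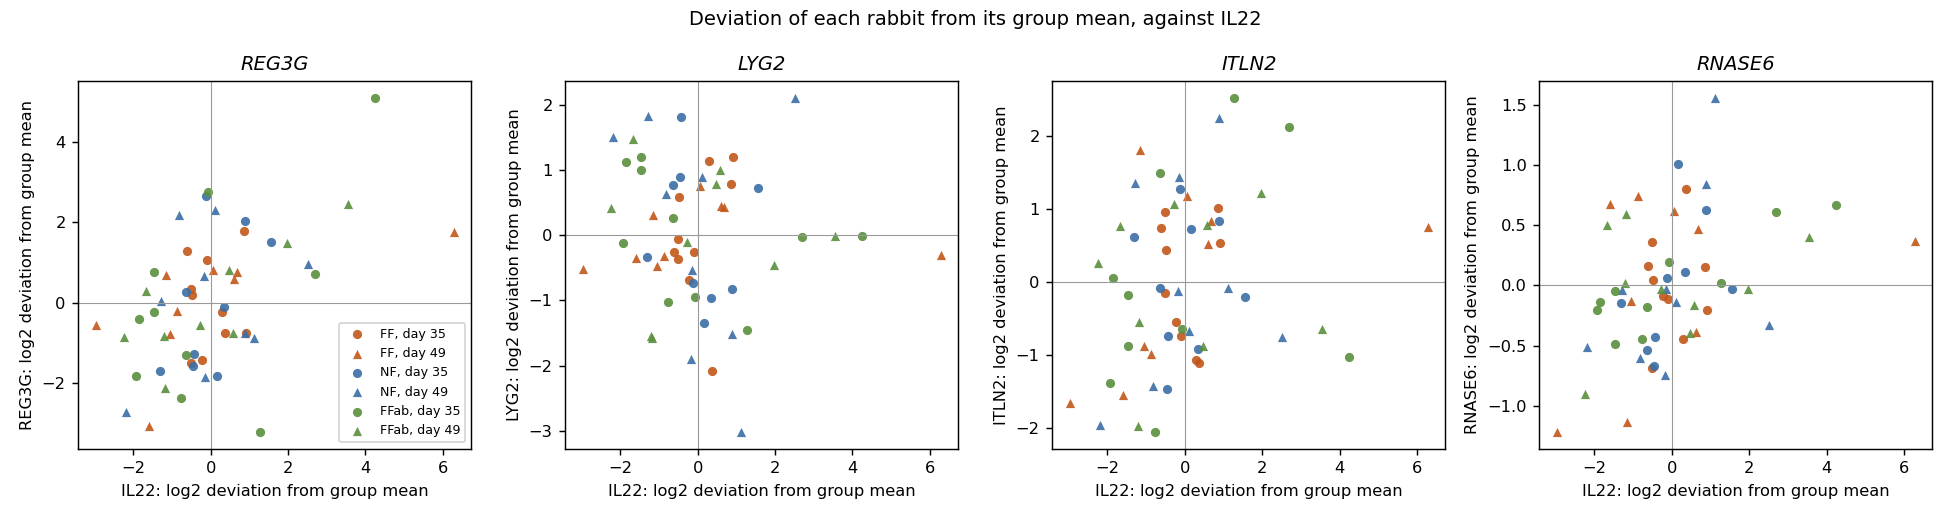
Log2 deviation of each member (vertical axes) from its group mean, against that of IL22 (horizontal axes), for 56 rabbits. Circles are day 35 and triangles day 49. REG3G (r = 0.50) and RNASE6 (r = 0.39) slope upward, LYG2 (r = -0.10) does not, and 1 rabbit lies alone at the right.

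Among themselves the members varied mostly apart. Of the 6 pairs, compared after the values were seen, 1 passed: LYG2 and RNASE6 went in opposite directions, with r = -0.44 and rho = -0.42 (permutation within groups, adjusted p = 0.0084 and 0.0115). Without the 2 rabbits farthest from the RNASE6 median, r was -0.38 (permutation, adjusted p = 0.0283), and with slide means removed -0.40 (permutation, adjusted p = 0.0242; rho -0.34, adjusted p = 0.0929). Within groups r was -0.81 in NF rabbits of day 35, -0.63 in FF rabbits of day 35 and -0.61 in NF rabbits of day 49, -0.18 and -0.27 in FFab rabbits of days 35 and 49, and 0.09 in FF rabbits of day 49. It was thus near 0 in FF rabbits of day 49, where LYG2 also varied least, and differences in r between groups were not tested. The other 5 pairs had r between -0.03 and 0.20, REG3G and LYG2 among them (r = 0.16, permutation, adjusted p = 0.542).

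**Figure D5:**
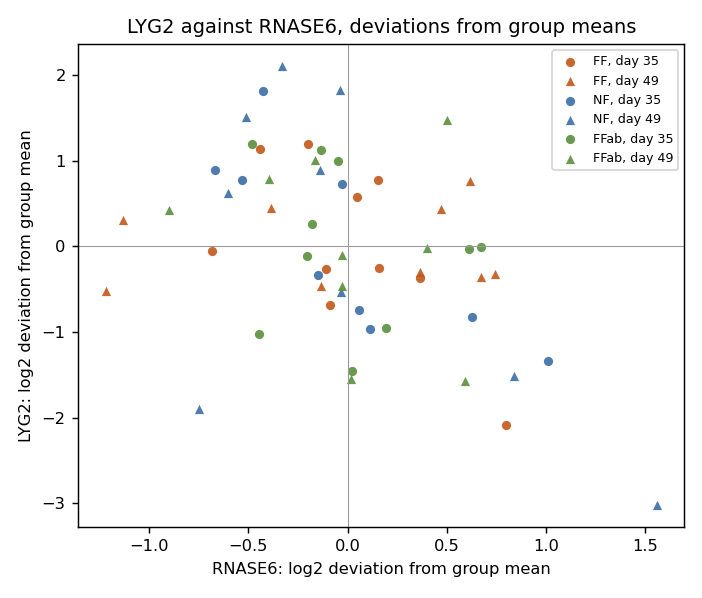
Log2 deviation of LYG2 from its group mean against that of RNASE6, for 56 rabbits; circles are day 35 and triangles day 49. Rabbits with high RNASE6 tended to have low LYG2 (r = -0.44).

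Markers of other cell types were read beside the members, as the mean log2 signal of 8 lists in each rabbit (32 relations). RNASE6 followed the T and NK cell list (8 of 14 genes measured, r = 0.73, rho = 0.76), the myeloid list (9 of 15, r = 0.65, rho = 0.65), the B and plasma cell list (5 of 12, r = 0.60, rho = 0.61) and the neutrophil list (6 of 11, r = 0.55, rho = 0.51). The adjusted permutation p of these r were 0.000107 for the first 3, the smallest the permutations can give after adjustment, and 0.00016. LYG2 fell as the T and NK list rose (r = -0.36, rho = -0.37, permutation, adjusted p = 0.0204 and 0.0274). REG3G followed the neutrophil list (r = 0.38, rho = 0.37, permutation, adjusted p = 0.0395 and 0.0307). The first 5 held without the 2 rabbits farthest from each list's median, and the relation of REG3G with the neutrophil list did not. The part of cell composition in the members' differences was not tested.

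Among the lists read in FF rabbits, the means of the B and plasma cell list and the red cell list differed most between ages. The median of the B and plasma cell list mean was 8.28 (range 6.35 to 10.39) at day 35 and 9.32 (6.91 to 10.32) at day 49 in FF rabbits, 7.98 and 9.13 in NF rabbits and 8.26 and 7.90 in FFab rabbits. That of the red cell list (4 of 12 measured) was 7.25 (6.16 to 7.89) and 6.20 (5.70 to 6.62) in FF rabbits. The median of the T and NK list mean went from 7.79 (range 7.48 to 8.30) to 8.26 (7.75 to 8.73) in FF rabbits, and that of the myeloid list from 8.12 (7.51 to 8.28) to 8.26 (7.86 to 8.59). The goblet cell list had medians of 10.8 and 10.7 and the neutrophil list 8.08 and 8.04. The enterocyte list had medians of 13.92 (range 12.96 to 15.36) and 14.43 (14.10 to 14.52) in FF rabbits. In NF rabbits its medians were 14.24 and 14.38, and in FFab rabbits 13.99 and 14.23. Over all 8037 genes, 365 were called in FF rabbits and 237 of them rose (2.95% of all genes). Single calls in lists this short therefore say little about a list. In FF rabbits 1 of 8 T and NK genes rose (PRF1, perforin), as did 1 of 9 myeloid genes (XCR1, a chemokine receptor of dendritic cells). So did 2 of 8 enterocyte genes (ALPI, intestinal alkaline phosphatase, and SLC5A1, the sodium-glucose cotransporter). In the B and plasma cell list 2 of 5 genes rose in FF rabbits (IGHM, the immunoglobulin mu chain, by 1.17 ± 0.26, and TNFRSF17, the receptor BCMA of plasma cells, by 0.95 ± 0.28; limma, adjusted p = 0.00273 and 0.0249), and in the red cell list 1 of 4 fell (CA1, carbonic anhydrase 1, by 2.49 ± 0.67, adjusted p = 0.0132). None of the tested goblet cell, neutrophil and Paneth cell genes was called, the smallest unadjusted p in FF rabbits being those of SPDEF (0.214) and SYTL2 (0.416), MPO (0.479) and MMP8 (0.494), and SOX9 (0.192). The next T and NK, myeloid and red cell genes by p were ZAP70, CD68 and ALAS2, with log2 differences of 0.53, 0.34 and -0.67 and adjusted p in limma of 0.12, 0.0529 and 0.158. Muscle genes rose too, 2 of 10 in FF rabbits (TNNC1 and ACTN2, of the contractile apparatus). It passed the filter only through the 3 groups of day 49, where it was high, so its calls are no support for a rise. The muscle list mean had medians of 10.39 (9.92 to 10.80) and 10.97 (10.57 to 11.77) in FF rabbits of days 35 and 49.

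The genes whose deviations were most like those of each member differed between members. For REG3G these were FAM3B (r = 0.62), PLS1 (r = 0.57), which encodes the microvillus protein plastin 1, and FGB (r = 0.56), the fibrinogen beta chain. For LYG2 they included FUCA2 (r = 0.66), an enzyme that removes fucose from glycans, and GABARAPL2 (r = 0.66), of the autophagy machinery. For ITLN2 they were PLLP, EEPD1 and SUSD6 (r = 0.56, 0.55 and 0.55). For RNASE6 they were SP100 (r = 0.83), LY96 (r = 0.83), which encodes the TLR4 partner MD-2, and KMO (r = 0.83), kynurenine 3-monooxygenase. These are among the highest of 7765 genes with a symbol over 56 arrays, so their size is partly a matter of selection and no test is given.

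No other antimicrobial gene that was tested rose in any treatment by the call rule. Of 67 listed genes besides the members 19 were named on the array and 12 passed the filter. None of the 12 was called in FF, NF or FFab rabbits (limma), where 2.95%, 0.0249% and 0.0747% of all genes rose. With shares this low, the absence of a call among 12 genes does not set them apart from other genes. Their median log2 difference in FF rabbits was 0.17, beside -0.02 for all genes. The LYG2 relative LYG1 had a difference of 0.51 ± 0.48 in FF rabbits and REG4, a relative of REG3G, 0.23 ± 0.36 (limma, adjusted p = 0.613 and 0.799). RNASE1, of the RNASE6 family, differed by -0.47 ± 0.14 (limma, adjusted p = 0.0285), below the fold threshold, and BPI, which binds and kills Gram-negative bacteria, by 0.52 ± 0.26 (limma, adjusted p = 0.243). Averaged over treatments 2 of 12 fell, as did 1.08% of all genes: SAA3, an acute-phase protein, by 1.17 ± 0.28, and CAMP, the cathelicidin, by 0.95 ± 0.28 (limma, adjusted p = 0.00225 and 0.0141). In FF rabbits alone the difference of SAA3 was -1.11 ± 0.47 (limma, adjusted p = 0.15).

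Of the 34 listed genes of the IL22 and IL17 axis, 24 were named and 22 tested. IL22 itself is left out of the count, since it passed the filter only through FF rabbits of day 49. In FF rabbits 3 of the other 21 rose, beside 2.95% of all genes: NFKBIZ, a transcriptional coregulator of the IL17 response, by 0.94 ± 0.23, IL17B by 0.74 ± 0.22 and IL18, an epithelial cytokine, by 0.56 ± 0.13 (limma, adjusted p = 0.00721, 0.0233 and 0.00442). None was called in NF or FFab rabbits, nor averaged over treatments. The receptor chain IL22RA1 differed by -0.02 ± 0.08 averaged over treatments, and STAT3 by 0.20 ± 0.07 (limma, adjusted p = 0.937 and 0.0293), the latter below the fold threshold.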

How the data were processed

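Intensities of a custom one-colour Agilent array were deposited as 57 scanner files; per the labels and the file headers they came from Agilent Feature Extraction (10.10.1.1 in the headers, 10.7.3.1 in the submitters' processing notes). The authors also deposited a table of log2 values, quantile normalised by them, used here as an alternative. Members and gene lists were chosen with earlier results of these data known.

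Processed signals of 42089 probes were averaged over spots, set to log2 and quantile normalised over 56 arrays, with limma 3.58.1 in R 4.3.3. A probe was kept when, in some group, 75% or more of its arrays had it well above background (31722 probes). Each gene was read by its kept probe of median level (8037 genes). Group means were fitted in limma, with Benjamini-Hochberg adjustment over all genes. Each array is 1 rabbit and its number sets the precision; litters are not given in the labels. Correlations used 100000 permutations within groups, or all orders in single groups of up to 9 rabbits; relations among members and with marker lists were added after seeing the data. Both methods were tested on simulated data. Named were the members, IL22, listed genes called with age (or, in lists with fewer than 2, those of smallest p in FF rabbits) and the 3 genes most like each member, of which 1 is not reported here; CAMP, BPI, LYG1, REG4, IL22RA1 and STAT3 were named after their values were seen. Gene names came from accessions and gene IDs through RefSeq for 20435 probes, and from the study's lists of differentially expressed genes for 137. Descriptions or gene names in the array files gave some others, and 21199 probes stayed unnamed. Protein and promoter sequences were not used here.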

Additional observations from a re-analysis of the deposited data

Results flagged for a closer look

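Of 30 sets of rabbits (4 members and IL22 in 6 groups each), 1 held an animal far from the others: FF rabbit lap158 of day 49, with an IL22 log2 signal of 11.30 where the next rabbit of its group, lap208, had 5.72. By chance about 1 set in 20 would be picked out in this way. The same rabbit was the highest of its group on all 5 IL22 probes, at 11.30 to 11.38, and it had the highest REG3G of all 56 rabbits (18.53), while its LYG2 (11.23) was the median of its group.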

How the results depend on the processing

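The calls of REG3G and LYG2 in FF rabbits, and of REG3G, LYG2 and ITLN2 averaged over treatments, were kept under all 12 alternative settings and without any single rabbit. Under the settings the rise in FF rabbits lay between 3.69 and 3.96 for REG3G and between 2.20 and 2.39 for LYG2. Without single rabbits it lay between 3.73 and 4.33 for REG3G and between 2.15 and 2.51 for LYG2.

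Over the genes that passed the filter, IL22 in FF rabbits had an adjusted p below 0.05, which was lost with the authors' table (0.95) and no filter on dim probes (1.98), both of which also read IL22 by another probe, A_04_P089395, and with normexp (0.91), only the contrast's groups in the fit (2.41) and array weights (1.98); the cause was not tested. Averaged over treatments, and over these same genes, IL22 passed with slide as a random block (1.18) and with array weights (1.29). This is no support for a rise, since the probe passed the filter only through FF rabbits of day 49. Tested with all 42089 probes in the main fit, the averaged difference had an adjusted p of 0.106 in limma.

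Some differences turned in sign, none of them called. With all 57 arrays the difference in age change of ITLN2 between FF and NF was 0.32, and ITLN2 in FF minus NF at day 35 was -0.12. With array weights, FF minus FFab at day 49 was -0.0317 for ITLN2 and -0.13 for IL22, NF minus FFab at day 35 was -0.39 for REG3G, and the difference in age change of IL22 between NF and FFab was -0.21. With the authors' table, NF minus FFab at day 35 was -0.0113 for LYG2 and -0.0288 for REG3G, and FF minus FFab at day 35 was 0.0062 for RNASE6. With 75th percentile scaling, NF minus FFab at day 35 was -0.0134 for REG3G and FF minus NF at day 49 was -0.0028 for RNASE6. With normexp, NF minus FFab at day 35 was -0.0068 for ITLN2 and FF minus NF at day 49 was -0.00117 for RNASE6. With slide as a fixed block, FF minus FFab at day 35 was 0.0253 for RNASE6. Without the filter, NF minus FFab at day 49 was 0.53 for IL22.

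Leaving out single rabbits gave these ranges where a sign or a call changed. Where IL22 crossed the threshold here, it did so over the genes that passed the filter, which is no support for a rise. Age change: REG3G in FFab 2.25 to 3.17, RNASE6 in FF 0.60 to 0.84, IL22 in FF 1.63 to 2.78, IL22 in FFab -0.15 to 0.77, IL22 averaged over treatments 0.90 to 1.32 (past the threshold without lap96, lap108, lap201 or lap212, limma, adjusted p 0.0258 to 0.0472). Difference in age change of ITLN2: FF minus FFab -0.50 to 0.0102, FF minus NF -0.35 to 0.18, NF minus FFab -0.40 to 0.13; of IL22, NF minus FFab -0.00027 to 0.91. Day 35: REG3G FF minus FFab -0.76 to 0.16 and NF minus FFab -0.34 to 0.58, LYG2 NF minus FFab -0.19 to 0.21, ITLN2 NF minus FFab -0.22 to 0.29, RNASE6 FF minus FFab -0.12 to 0.0461. Day 49: ITLN2 FF minus FFab -0.15 to 0.30, FF minus NF -0.0489 to 0.48 and NF minus FFab -0.38 to 0.14, RNASE6 FF minus NF -0.0898 to 0.20, IL22 FF minus FFab -0.0125 to 1.21 and NF minus FFab -0.37 to 0.39.

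The correlation of ITLN2 with IL22 passed the threshold without the 2 farthest rabbits (0.343) and, with probe A_04_P089392, without them (0.31). With probe A_04_P089394 RNASE6 fell below it (0.269, and 0.208 without the 2 farthest), as did REG3G without the 2 farthest (0.272).

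The count of genes called in FF rabbits, 365, stayed between 296 and 437 under the settings. In NF rabbits it was 2, and 5 with 57 arrays, 8 with the authors' table, 1 with normexp, 6 with slide as a random block, 0 with only the contrast's groups and 19 with array weights; without single rabbits it lay between 1 and 15. In FFab rabbits it was 7, and 4 with 57 arrays, 15 with slide as a random block, 0 with only the contrast's groups and 33 with array weights; without single rabbits it lay between 4 and 41. Averaged over treatments it was 282, and 178 with normexp.

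No paired analysis was possible because the rabbit numbers are unique to each group. IL22 near background makes its folds rough, and its correlations rest on probes that were well above background in a minority of rabbits.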

Other observations

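NF rabbit lap78 of day 35, left out of the comparisons, had a REG3G log2 signal of 15.59, an ITLN2 signal of 15.84, a LYG2 signal of 10.77 and a RNASE6 signal of 9.42. Its ITLN2 signal was above the highest of the other 56 rabbits (15.22), its RNASE6 signal was below the lowest of them (9.56), and IL22 was not well above background on any of its 5 probes.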
